A study of Homo sapiens with 6 samples.

Results

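The 40 genes described here act when a cell passes from G2 phase into mitosis, segregates its chromosomes and divides. They were named by symbol as a set, and each was measured by the probe set of that symbol with the highest mean over the 6 arrays of the series, with any other probe set of the gene kept as a check. All 40 were found among 19775 genes with a probe set of a single symbol, all 40 were among the 10459 genes tested, and on every array each was above the background limit of log2 5. SK-N-AS is an established human neuroblastoma cell line, and 3 cultures of it were compared on 2 Affymetrix HG-U133 Plus 2.0 arrays each. The iCSC culture was pretreated with 5AdC (2.5 uM), the DNA methyltransferase inhibitor 5-aza-2'-deoxycytidine, for 5 days while growing as a monolayer, and was then moved into serum-free medium and grown as spheroids. The Sphere culture was grown as spheroids in serum-free medium with no pretreatment. The Monolayer culture grew attached, also with no pretreatment. All arrays thus come from 1 cell line, Sphere differs from Monolayer in its form and its medium at once, and no monolayer sampled after 5AdC alone was analysed here. Nothing in the labels states that replicate arrays stand for independent cultures, so p-values here reflect array-to-array spread that may be technical.

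As background, entry into mitosis is driven by CDK1 bound to cyclin A or B and switched on by the CDC25 phosphatases. Aurora, Polo and NEK kinases then build the spindle, kinesins move and anchor its microtubules, kinetochore proteins tie chromosomes to it and signal through the spindle checkpoint, and the anaphase-promoting complex (APC/C) with CDC20 releases the sister chromatids before the cell is cut apart. The messenger RNAs of most of these proteins peak in G2 and mitosis, under the control of the MuvB complex with MYBL2 and FOXM1, of E2F factors and of the CCAAT-binding factor NF-Y. In RNA from whole cultures, fewer cells in G2 or mitosis and less of these RNAs per dividing cell cannot be told apart.

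In the Sphere culture most of these genes were lower than in the Monolayer culture. Of the 40, 26 were lower, none was higher and 14 were not called, with a median log2 fold change of -0.62 (limma with a mean per culture, Benjamini-Hochberg adjusted p under 0.05 over all 10459 genes, as for every call below). Over all genes tested, 59% were called in this comparison, 29.1% as lower and 30% as higher, and their median was 0.006, so the members' share of lower calls, 65.0%, was above that background and their share of higher calls below it. At an unadjusted p under 0.05, 1 member, KIF2C, was higher, against 32.1% of all genes. Set against Sphere, the iCSC culture had 13 of the 40 genes higher, 2 lower and 25 not called, with a median of 0.24. There 19.3% of all genes tested were called higher, 19.2% lower and 38.5% in either direction. Set against Monolayer, iCSC had 18 genes lower, 1 higher and 21 not called, with a median of -0.33, where 26.6% of all genes were called lower, 29% higher and 55.6% in either direction. Read without a test, the arrays of the cultures did not overlap and were lower for 32 genes and higher for 1 in Sphere against Monolayer (41.7% and 42.4% of all genes), higher for 21 and lower for 3 in iCSC against Sphere (35.6% and 33.8%), and lower for 25 and higher for 3 in iCSC against Monolayer (38.6% and 41.2%). The sizes of these changes depended on single arrays. Leaving out each array in turn gave a median of -0.76 to -0.44 in Sphere over Monolayer. It gave 0.11 to 0.34 in iCSC over Sphere and -0.47 to -0.22 in iCSC over Monolayer. Leaving out an array of either compared culture also lowered the number of calls over all genes. Leaving out an array of the third culture kept the fold changes. It raised that number in Sphere over Monolayer and lowered it in the other comparisons. A call lost where that number fell, or gained where it rose, here and below, is thus not by itself particular to these members. The comparisons share arrays, so their counts are not independent of each other.

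The calls of the probe sets used fell into a few patterns. Across the 3 comparisons, 6 genes were lower in Sphere than in Monolayer, higher in iCSC than in Sphere, and still lower in iCSC than in Monolayer: CCNB2, AURKB, KIF23, NUSAP1, ANLN and TOP2A. Another 7, CDK1, NEK2, BUB1B, KIF14, TPX2, PRC1 and UBE2C, were lower in Sphere than in Monolayer and higher in iCSC than in Sphere, with no call between iCSC and Monolayer. A group of 9, CCNA2, CCNB1, AURKA, CENPA, KIF20A, CKAP2L, ECT2, CDC20 and MKI67, was lower in Sphere and in iCSC than in Monolayer, with no call between iCSC and Sphere. PLK1, BUB1, CENPF and NUF2 were called only as lower in Sphere than in Monolayer, TTK only as lower and KIF2C only as higher in iCSC than in Monolayer. HMMR and DLGAP5 were lower in iCSC than in both other cultures. No call was made in any comparison for 10 genes, CDC25B, CDC25C, BIRC5, PLK4, MAD2L1, CENPE, NDC80, KIF11, KIF4A and FOXM1. The second-highest probe set of a gene moved some of them. With it, BUB1 and KIF14 were lower in iCSC than in Monolayer (adjusted p = 0.0385 and 0.0436), where NUSAP1 lost its call (0.206). In iCSC over Sphere, CENPF was then higher (0.0229), CCNB1 lower (0.00603), and NEK2 lost its call (0.234).

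**Figure D1:**
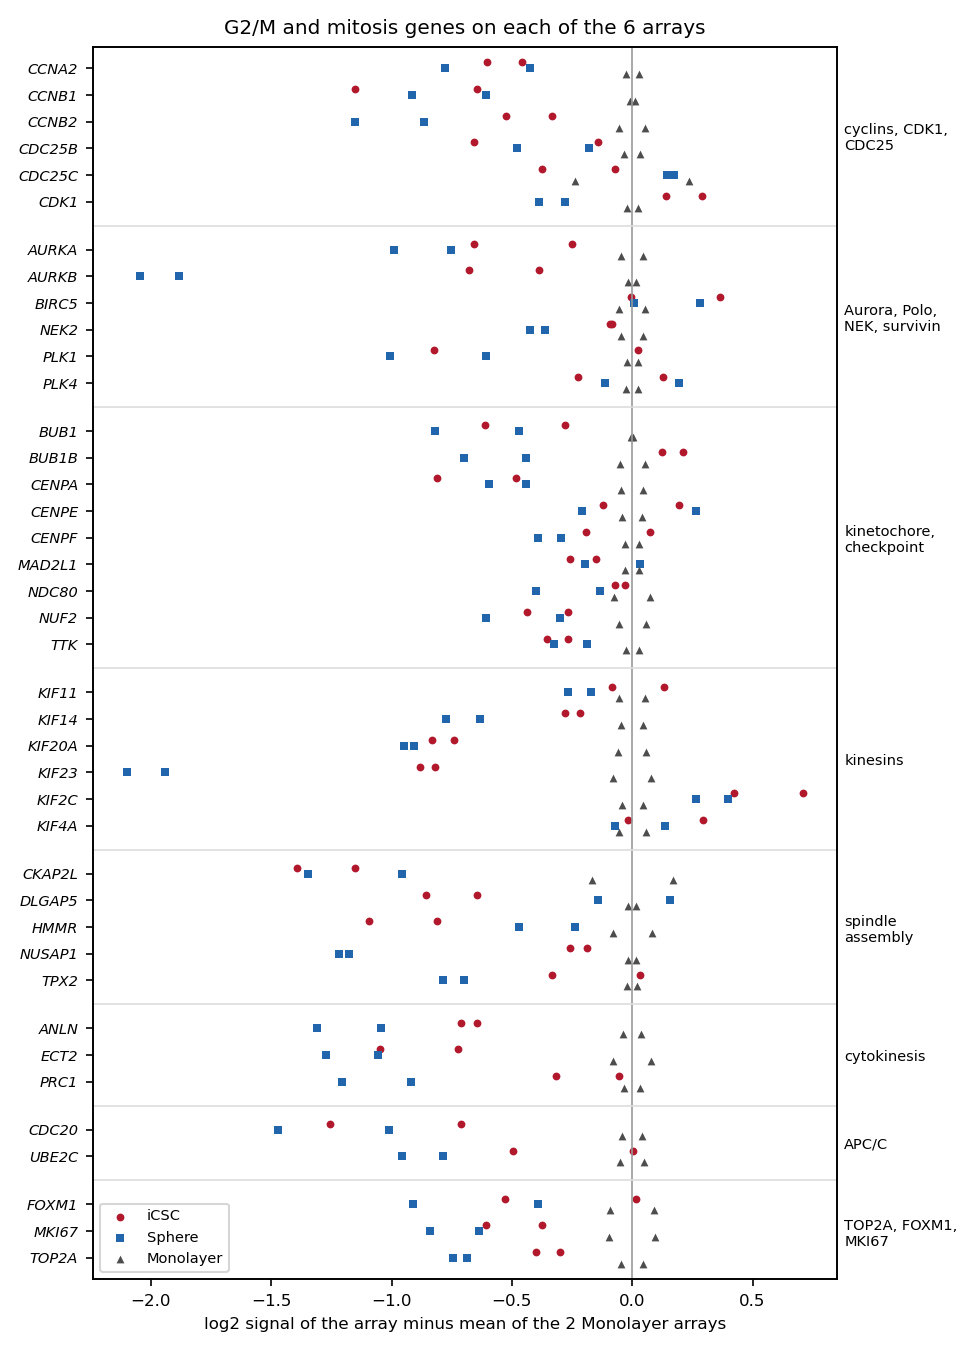
Each point is 1 array, placed by its log2 signal minus the mean of the 2 Monolayer arrays of that gene (horizontal axis), with iCSC as red circles, Sphere as blue squares and Monolayer as grey triangles, and the 40 genes in rows by role. KIF23 and AURKB lie farthest to the left in Sphere, at means of -2.02 and -1.96, while KIF2C lies to the right of zero in iCSC and Sphere.

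The plot of array values shows how closely the 2 Monolayer arrays lie together for most genes and how far the spheroid arrays sit to their left. The median position of the 40 genes was -0.47 and -0.22 in iCSC, against -0.76 and -0.44 in Sphere. Below the Monolayer mean were 36 and 28 genes in iCSC, and 37 and 32 in Sphere. All values are log2 signals of 1 probe set, so they compare a gene between arrays and not one gene with another.

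The windows upstream of the members were searched for the letters bound by their known regulators. RefSeq promoter windows of GRCh38.p14, from 250 bases before to 50 after an annotated start, were matched by symbol for 34 of the 40 genes, and AURKA, BIRC5, FOXM1, TPX2, TTK and UBE2C were not matched. A gene counted as holding a motif if any of its annotated starts did, on either strand. The letters TTTGAA or TTTAAA, the core of the cell cycle genes homology region (CHR) that the MuvB complex binds, were in 30 of 34 members' windows (88.2%), against 27.9% of 27305 genes with a window and 21.5% of the 8665 of them that were tested. The NF-Y box CCAAT was in 28 (82.4%), against 39.7% of all genes and 44% of those tested. A CHR core together with at least 2 CCAAT boxes was in 15 (44.1%), against 3.34% and 3.21%. The E2F letters TTCCCGC or TTGGCGC were in 7 (20.6%), against 11% of all genes and 18.2% of those tested. Read from the other strand CCAAT is ATTGG, which can share bases with TTGGCGC.

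Upstream windows of 250 bases are shown for 4 of the members with the largest summed changes (KIF23, AURKB, NUSAP1 and CKAP2L) and for the cyclin CCNB2, the APC/C activator CDC20 and the kinase PLK1. They run 5′ to 3′ on the gene's strand and end at the base before the start, with CHR cores and CCAAT boxes of either strand in capitals. AURKB, with 2 annotated starts, is 1 of 4 members without a CHR core in the windows, the others being CCNA2, NEK2 and BUB1, and it is shown for contrast at 1 of its starts.
KIF23, chr15:69414099-69414348, plus strand: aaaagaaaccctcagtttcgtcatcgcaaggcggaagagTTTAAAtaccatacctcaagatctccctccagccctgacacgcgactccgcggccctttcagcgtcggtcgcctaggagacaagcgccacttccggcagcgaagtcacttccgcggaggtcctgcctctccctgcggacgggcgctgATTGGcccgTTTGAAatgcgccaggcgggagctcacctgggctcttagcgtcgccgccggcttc
NUSAP1, chr15:41332631-41332880, plus strand: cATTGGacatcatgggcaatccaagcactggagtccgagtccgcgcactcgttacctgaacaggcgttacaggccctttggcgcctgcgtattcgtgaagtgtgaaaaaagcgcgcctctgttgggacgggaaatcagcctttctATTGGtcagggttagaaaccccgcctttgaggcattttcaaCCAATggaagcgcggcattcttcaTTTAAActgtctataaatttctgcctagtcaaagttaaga
CCNB2, chr15:59104896-59105145, plus strand: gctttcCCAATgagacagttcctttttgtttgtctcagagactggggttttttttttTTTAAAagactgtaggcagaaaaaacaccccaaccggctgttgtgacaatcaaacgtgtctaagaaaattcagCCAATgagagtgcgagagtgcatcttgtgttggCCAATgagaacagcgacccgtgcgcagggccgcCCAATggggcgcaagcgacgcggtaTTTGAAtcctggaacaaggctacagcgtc
CDC20, chr1:43358731-43358980, plus strand: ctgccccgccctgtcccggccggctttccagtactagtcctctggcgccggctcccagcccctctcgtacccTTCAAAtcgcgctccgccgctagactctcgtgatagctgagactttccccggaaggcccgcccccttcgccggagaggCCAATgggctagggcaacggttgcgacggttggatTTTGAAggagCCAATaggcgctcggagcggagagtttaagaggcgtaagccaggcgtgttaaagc
CKAP2L, chr2:112764610-112764859, minus strand: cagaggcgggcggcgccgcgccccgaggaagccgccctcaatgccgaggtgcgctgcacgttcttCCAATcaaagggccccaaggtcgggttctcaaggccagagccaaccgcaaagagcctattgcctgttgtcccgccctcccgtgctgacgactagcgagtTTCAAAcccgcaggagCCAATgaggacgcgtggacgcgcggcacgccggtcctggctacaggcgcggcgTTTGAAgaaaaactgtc
PLK1, chr16:23678639-23678888, plus strand: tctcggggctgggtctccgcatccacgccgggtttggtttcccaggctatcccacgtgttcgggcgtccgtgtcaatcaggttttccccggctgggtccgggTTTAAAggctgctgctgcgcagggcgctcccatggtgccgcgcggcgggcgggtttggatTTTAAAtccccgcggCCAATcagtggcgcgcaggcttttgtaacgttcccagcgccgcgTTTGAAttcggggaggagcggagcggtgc
AURKB, chr17:8210226-8210475, minus strand: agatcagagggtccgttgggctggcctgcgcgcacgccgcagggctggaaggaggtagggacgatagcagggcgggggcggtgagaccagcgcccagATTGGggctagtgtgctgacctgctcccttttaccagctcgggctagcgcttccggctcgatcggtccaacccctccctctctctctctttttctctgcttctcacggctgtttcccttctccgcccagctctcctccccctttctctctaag

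In these windows the CHR core nearest the start began 29 bases before it in CCNB2 and PLK1, 17 in CKAP2L, 40 in NUSAP1, 55 in KIF23 and 65 in CDC20. CCNB2 held CCAAT at 54, 87, 120 and 244 bases before its start, and CDC20 held it at 55 and 100. The median log2 fold change of Sphere over Monolayer was -0.54 for the 30 members with a CHR core and -0.62 for the 4 without. With only 4 genes without a core, these values cannot decide whether holding one goes with a larger change. For members with at least 2 CCAAT boxes the median was -0.71, against -0.45 for the 17 without, with 17 genes in each set. For the 7 members with the E2F letters it was -0.33, against -0.64 for the 27 without. These are matches of letters and not measured binding.

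Among the cyclins, CDK1 and its activating phosphatases, 4 of 6 genes were lower in Sphere than in Monolayer. CCNB2, which encodes cyclin B2, read 10.70 and 10.89 in iCSC, 10.07 and 10.36 in Sphere, and 11.28 and 11.17 in Monolayer, with no overlap between the cultures. Its log2 fold change was -1.01 ± 0.13 (SE) in Sphere over Monolayer (adjusted p = 0.00074) and 0.58 ± 0.13 in iCSC over Sphere (adjusted p = 0.0135). CCNB1, the main cyclin of mitotic entry, read 11.78 and 12.28 in iCSC, 12.01 and 12.32 in Sphere, and 12.92 and 12.94 in Monolayer. Both spheroid cultures were thus below Monolayer and overlapped each other, with fold changes of -0.90 ± 0.18 in iCSC and -0.76 ± 0.18 in Sphere over Monolayer (adjusted p = 0.00561 and 0.00994). A second CCNB1 probe set was lower in iCSC than in Sphere as well (-0.60, adjusted p = 0.00603 when used in place of the first). CCNA2, cyclin A2, was lower than Monolayer by similar amounts, -0.53 in iCSC and -0.60 in Sphere (adjusted p = 0.0151 and 0.00829).

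CDK1, the kinase these cyclins activate, differed from them in iCSC. It read 12.62 and 12.47 in iCSC, 11.95 and 12.05 in Sphere, and 12.31 and 12.36 in Monolayer. With this probe set both iCSC arrays were the highest of the 6, and both Sphere arrays the lowest. The fold change was 0.55 ± 0.08 in iCSC over Sphere (adjusted p = 0.00323), -0.33 ± 0.08 in Sphere over Monolayer (adjusted p = 0.014) and 0.22 ± 0.08 in iCSC over Monolayer, which was not called (adjusted p = 0.0688). In the further CDK1 probe sets Sphere was also lowest, but iCSC and Monolayer arrays overlapped. Their fold changes of iCSC over Monolayer were 0.03, 0.09 and -0.22. The phosphatases CDC25B and CDC25C, which remove the inhibitory phosphates from CDK1, were called in no comparison, with fold changes of Sphere over Monolayer of -0.33 (95% interval -0.77 to 0.11) and 0.16 (-0.35 to 0.67). The Sphere over Monolayer calls of this group leaned on single arrays. CCNA2 lost its call without Monolayer replicate 1 (adjusted p = 0.0632), CCNB1 without either Monolayer array (0.0623 for replicate 1, 0.0659 for replicate 2) or Sphere replicate 1 (0.0753), and CDK1 without the same 3 arrays (0.0652, 0.0911 and 0.0798). In iCSC over Sphere CCNB2 lost its call without Sphere replicate 1 (adjusted p = 0.0713). Against Monolayer, the iCSC call of CCNB2 (-0.43, adjusted p = 0.0289) was lost without either Monolayer array (0.159 for replicate 1, 0.0889 for replicate 2) or iCSC replicate 1 (0.107), and that of CCNA2 without the same arrays (0.0953, 0.0723 and 0.0607).

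Of the 6 genes for Aurora, Polo and NEK kinases with survivin, 4 were lower in Sphere than in Monolayer and 2 were higher in iCSC than in Sphere. AURKB, the kinase of the chromosomal passenger complex that corrects faulty attachments and guides cytokinesis, read 8.79 and 9.08 in iCSC, 7.42 and 7.58 in Sphere, and 9.45 and 9.48 in Monolayer. The cultures did not overlap, and the gap between Sphere and either other culture was several times the gap between replicates. Sphere was 3.9-fold below Monolayer (log2 fold change -1.96 ± 0.15, adjusted p = 6.93e-05) and iCSC was 2.7-fold above Sphere (1.43 ± 0.15, adjusted p = 0.000582). BIRC5, survivin, which sits in the same complex as AURKB, was not called and read 10.43 and 10.80 in iCSC, 10.44 and 10.72 in Sphere, and 10.49 and 10.38 in Monolayer. Its interval for Sphere over Monolayer ran from -0.23 to 0.52. Of its 3 further probe sets 1 differed, at -0.62 in Sphere over Monolayer (adjusted p = 0.0518) and 0.87 in iCSC over Sphere (adjusted p = 0.0253). The other passenger subunits CDCA8 and INCENP were not called in this comparison either (-0.22 and -0.08, adjusted p = 0.24 and 0.763; both were named here after their values were seen).

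AURKA, which matures the spindle poles, read 10.77 and 11.18 in iCSC, 10.44 and 10.68 in Sphere, and 11.48 and 11.38 in Monolayer. Its fold change was -0.87 ± 0.15 in Sphere over Monolayer (adjusted p = 0.00322), while iCSC over Sphere, 0.42 ± 0.15, was not called (adjusted p = 0.0767). PLK1, the Polo kinase of mitotic entry, varied most between replicates, with 8.62 and 9.46 in iCSC, 8.43 and 8.83 in Sphere, and 9.41 and 9.46 in Monolayer. The higher iCSC array of PLK1 was level with Monolayer and the lower one lay within the Sphere range. The call of PLK1 in Sphere over Monolayer (-0.81 ± 0.28, adjusted p = 0.0459) was lost without any 1 of the Monolayer arrays (0.157 for replicate 1, 0.174 for replicate 2) or Sphere arrays (0.234 and 0.0735). NEK2, which splits the centrosomes, was lower in Sphere than in Monolayer (-0.39 ± 0.08, adjusted p = 0.00707), a call lost without Monolayer replicate 1 (0.0612). In iCSC it was above Sphere (0.30 ± 0.08, adjusted p = 0.0296), a call lost without any 1 of the 6 arrays (Monolayer replicates 1 and 2, 0.0643 and 0.0641; Sphere replicates 1 and 2, 0.121 and 0.0752; iCSC replicates 1 and 2, 0.0505 and 0.0542). PLK4, which starts centriole copying, was not called in any comparison, with fold changes between -0.09 and 0.04. Between iCSC and Monolayer, AURKB (-0.53, adjusted p = 0.0218) and AURKA (-0.45, adjusted p = 0.0444) were lower, and both calls were lost without Monolayer replicate 1 (0.102 for AURKB and 0.198 for AURKA), replicate 2 of Monolayer (0.114 and 0.13) or replicate 1 of iCSC (0.0761 and 0.153), and that of AURKA also without Sphere replicate 1 (0.063) or 2 (0.0631).

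Of the 9 kinetochore and checkpoint genes 5 were lower in Sphere than in Monolayer, and their median of -0.34 was the nearest to zero of the 8 roles. BUB1B, the checkpoint protein BubR1, read 11.95 and 12.04 in iCSC, 11.13 and 11.39 in Sphere, and 11.78 and 11.88 in Monolayer. The iCSC arrays were thus the highest and the Sphere arrays the lowest. The fold change of BUB1B was 0.74 ± 0.11 in iCSC over Sphere (adjusted p = 0.00257) and -0.57 ± 0.11 in Sphere over Monolayer (adjusted p = 0.00406). BUB1, the kinase that recruits it, was also lower in Sphere than in Monolayer (-0.64 ± 0.16, adjusted p = 0.0137), as were CENPA, the histone H3 variant of centromeres (-0.52 ± 0.16, adjusted p = 0.0336), CENPF, a kinetochore and nuclear matrix protein (-0.34 ± 0.11, adjusted p = 0.0318), and NUF2, a subunit of the NDC80 complex that grips microtubules (-0.45 ± 0.13, adjusted p = 0.0225).

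The last 4 calls each depended on single arrays. BUB1 lost its call without either Monolayer array (adjusted p = 0.0798 for replicate 1, 0.0758 for replicate 2) or Sphere replicate 1 (0.0837), and NUF2 without the same arrays (0.135, 0.0729 and 0.116). CENPA and CENPF lost theirs without any 1 of the Monolayer or Sphere arrays, at adjusted p from 0.0754 to 0.159 for CENPA and from 0.0712 to 0.152 for CENPF. MAD2L1, the checkpoint protein that inhibits CDC20, and the motor CENPE, which carries chromosomes to the spindle equator, were not called in any comparison. Nor was NDC80, the partner of NUF2, with fold changes of -0.26 in Sphere over Monolayer, 0.21 in iCSC over Sphere and -0.05 in iCSC over Monolayer. For MAD2L1 this holds for the probe set used, at -0.08 in Sphere over Monolayer. A further MAD2L1 set was lower there (-0.45, adjusted p = 0.0269 in limma over all probe sets), and another was at 0.05. Against Monolayer, iCSC was lower for CENPA (-0.65 ± 0.16, adjusted p = 0.0159) and for the checkpoint kinase TTK (-0.31 ± 0.10, adjusted p = 0.0429). CENPA lost that call without either Monolayer array (0.0996 for replicate 1, 0.069 for replicate 2) or iCSC replicate 1 (0.0559). TTK lost it without any 1 of the Monolayer arrays (0.187 for replicate 1, 0.127 for replicate 2) or Sphere arrays (0.0558 and 0.0566), or without iCSC replicate 2 (0.0996).

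The 6 kinesins split. KIF23, the motor of the centralspindlin complex at the spindle midzone, had the largest change of all members between Sphere and Monolayer. It read 9.94 and 10.00 in iCSC, 8.72 and 8.88 in Sphere, and 10.90 and 10.74 in Monolayer. The cultures did not overlap: Sphere was 4.06-fold below Monolayer (-2.02 ± 0.11, adjusted p = 1.71e-05), iCSC was 2.25-fold above Sphere (1.17 ± 0.11, adjusted p = 0.00042) and 1.8-fold below Monolayer (-0.85 ± 0.11, adjusted p = 0.00102). Its partner in centralspindlin, RACGAP1, went the other way between Sphere and Monolayer (0.43 ± 0.08, adjusted p = 0.00477; named here after its values were seen). KIF20A, a midzone motor that brings in the passenger complex, read 10.12 and 10.21 in iCSC, 10.00 and 10.05 in Sphere, and 10.89 and 11.01 in Monolayer. Both spheroid cultures lay close together, -0.79 ± 0.09 in iCSC and -0.93 ± 0.09 in Sphere over Monolayer (adjusted p = 0.000682 and 0.000272). KIF14, which acts with PRC1 and citron kinase in cytokinesis, was lower in Sphere than in Monolayer (-0.70 ± 0.10, adjusted p = 0.00113) and in iCSC above Sphere (0.45 ± 0.10, adjusted p = 0.0125), the second call lost without Sphere replicate 1 (0.0705).

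KIF2C, a kinesin that takes microtubules apart at centromeres, was the only member called higher than Monolayer in either spheroid culture. It read 9.73 and 10.02 in iCSC, 9.57 and 9.71 in Sphere, and 9.35 and 9.26 in Monolayer, so all 4 spheroid arrays were above both Monolayer arrays. The fold change was 0.57 ± 0.13 in iCSC over Monolayer (adjusted p = 0.0114), a call lost without Monolayer replicate 1 (0.0549) or 2 (0.0784), and 0.33 ± 0.13 in Sphere over Monolayer, which was not called (adjusted p = 0.0705) but passed the threshold without iCSC replicate 1 (0.0312) or 2 (0.0323). A second KIF2C probe set had the same sign in all 3 comparisons. KIF11, the motor that pushes the spindle poles apart, and KIF4A, a chromosome-bound motor, were not called in any comparison, with fold changes of -0.22 and 0.03 in Sphere over Monolayer.

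The spindle assembly proteins went in different directions in iCSC. NUSAP1, which bundles microtubules near chromatin, read 12.05 and 12.12 in iCSC, 11.09 and 11.13 in Sphere, and 12.32 and 12.29 in Monolayer. Replicates lay close together, and Sphere was 2.29-fold below Monolayer (-1.20 ± 0.07, adjusted p = 2.65e-05) while iCSC was 1.97-fold above Sphere (0.97 ± 0.07, adjusted p = 0.000145). TPX2, which activates AURKA on the spindle, was lower in Sphere than in Monolayer (-0.74 ± 0.13, adjusted p = 0.00253) and in iCSC above Sphere (0.59 ± 0.13, adjusted p = 0.0114), the second call lost without Sphere replicate 1 (0.0758) or 2 (0.0514). CKAP2L, radmis, a spindle protein of dividing neural progenitors in mice, read 7.26 and 7.50 in iCSC, 7.31 and 7.70 in Sphere, and 8.82 and 8.48 in Monolayer. Both spheroid cultures were at one level, well below Monolayer, with fold changes of -1.27 ± 0.21 in iCSC and -1.15 ± 0.21 in Sphere (adjusted p = 0.0024 and 0.00326).

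HMMR and DLGAP5 were the only members lower in iCSC than in Sphere. HMMR, which ties spindle poles together and also binds hyaluronan, read 10.86 and 11.14 in iCSC, 11.48 and 11.71 in Sphere, and 12.03 and 11.87 in Monolayer. DLGAP5, which stabilises the microtubules that hold kinetochores, read 9.41 and 9.63 in iCSC, 10.13 and 10.43 in Sphere, and 10.29 and 10.25 in Monolayer. For DLGAP5 the Sphere and Monolayer arrays overlapped and both iCSC arrays lay below them. The fold changes of iCSC over Sphere were -0.60 ± 0.13 for HMMR (adjusted p = 0.0135) and -0.76 ± 0.14 for DLGAP5 (adjusted p = 0.00606), and of iCSC over Monolayer -0.95 ± 0.13 (adjusted p = 0.00127) and -0.75 ± 0.14 (adjusted p = 0.00399). HMMR lost its call in iCSC over Sphere without Sphere replicate 2 (0.0858). With chromosome medians removed, neither call of iCSC over Sphere stood, at -0.29 for HMMR and -0.10 for DLGAP5 (adjusted p = 0.118 and 0.627). NUSAP1 was also lower in iCSC than in Monolayer (-0.22 ± 0.07, adjusted p = 0.0403), a call lost without any 1 of 5 arrays, all but iCSC replicate 2, at adjusted p from 0.0554 to 0.181.

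All 3 cytokinesis genes were lower in Sphere than in Monolayer, by amounts close to each other. ANLN, anillin, the scaffold of the contractile ring, read 11.42 and 11.35 in iCSC, 10.75 and 11.02 in Sphere, and 12.02 and 12.10 in Monolayer. ECT2, the exchange factor that activates RhoA at the cleavage site, read 10.71 and 10.39 in iCSC, 10.16 and 10.38 in Sphere, and 11.35 and 11.51 in Monolayer. PRC1, which crosslinks midzone microtubules, read 11.49 and 11.75 in iCSC, 10.60 and 10.88 in Sphere, and 11.77 and 11.84 in Monolayer. In each gene both Sphere arrays were the lowest of the 6 and both Monolayer arrays the highest. The fold changes of Sphere over Monolayer were -1.18 ± 0.11, -1.16 ± 0.14 and -1.06 ± 0.13 for ANLN, ECT2 and PRC1 (adjusted p = 0.000166, 0.000605 and 0.000651). In iCSC over Sphere they parted: PRC1 was higher by 0.88 ± 0.13 (adjusted p = 0.00289) and ANLN by 0.50 ± 0.11 (adjusted p = 0.0121, and 0.052 without Sphere replicate 1), while ECT2 was not called (0.28 ± 0.14, adjusted p = 0.17). ANLN and ECT2 stayed below Monolayer in iCSC (-0.68 ± 0.11 and -0.88 ± 0.14, adjusted p = 0.00218 and 0.00232), and PRC1 was not called there (-0.19 ± 0.13, adjusted p = 0.272).

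CDC20 and UBE2C, which drive the APC/C, were both lower in Sphere than in Monolayer. CDC20, the activator that selects securin and cyclin B for destruction, read 10.71 and 11.25 in iCSC, 10.49 and 10.95 in Sphere, and 12.00 and 11.92 in Monolayer, so both spheroid cultures overlapped each other and lay below Monolayer. The fold changes were -0.98 ± 0.21 in iCSC (adjusted p = 0.00828) and -1.24 ± 0.21 in Sphere over Monolayer (adjusted p = 0.00278), the first lost without Monolayer replicate 1 (0.0647) or 2 (0.0511). UBE2C, the conjugating enzyme that starts ubiquitin chains for the APC/C, read 12.21 and 12.71 in iCSC, 11.75 and 11.92 in Sphere, and 12.65 and 12.75 in Monolayer. In UBE2C the higher iCSC array reached the Monolayer range. Its fold change was -0.87 ± 0.16 in Sphere over Monolayer (adjusted p = 0.00401) and 0.62 ± 0.16 in iCSC over Sphere (adjusted p = 0.0245), the second lost without Monolayer replicate 1 (0.0629) or 2 (0.063) or Sphere replicate 1 (0.14) or 2 (0.0754).

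The last role holds TOP2A, FOXM1 and MKI67. TOP2A, the topoisomerase that untangles chromosomes, read 12.88 and 12.98 in iCSC, 12.53 and 12.59 in Sphere, and 13.23 and 13.32 in Monolayer, in 3 separate steps. The fold changes of TOP2A were -0.71 ± 0.07 in Sphere over Monolayer (adjusted p = 0.000289), 0.36 ± 0.07 in iCSC over Sphere (adjusted p = 0.00957, and 0.0582 without Sphere replicate 1) and -0.35 ± 0.07 in iCSC over Monolayer (adjusted p = 0.00742, and 0.0669 without Monolayer replicate 2). MKI67, the Ki-67 antigen used to stain dividing cells, was below Monolayer in Sphere (-0.74 ± 0.15, adjusted p = 0.00544) and in iCSC (-0.49 ± 0.15, adjusted p = 0.0296). Its further probe sets were at -0.67, -1.48 and -0.47 in Sphere over Monolayer. In iCSC over Monolayer they disagreed, at -0.22, -0.89 and 0.10 (adjusted p = 0.367, 0.0216 and 0.673). Without Monolayer replicate 2 neither MKI67 call stood (0.0519 in Sphere and 0.172 in iCSC), and without Monolayer replicate 1 or iCSC replicate 1 that in iCSC did not (0.0714 and 0.105). FOXM1, the transcription factor that drives many of the other members, read 9.17 and 9.71 in iCSC, 8.79 and 9.30 in Sphere, and 9.79 and 9.60 in Monolayer. Sphere lay below Monolayer, at -0.65 ± 0.24, but the adjusted p was 0.053, and it passed the threshold without Sphere replicate 2 (0.0398), iCSC replicate 1 (0.031) or iCSC replicate 2 (0.0317).

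**Figure D2:**
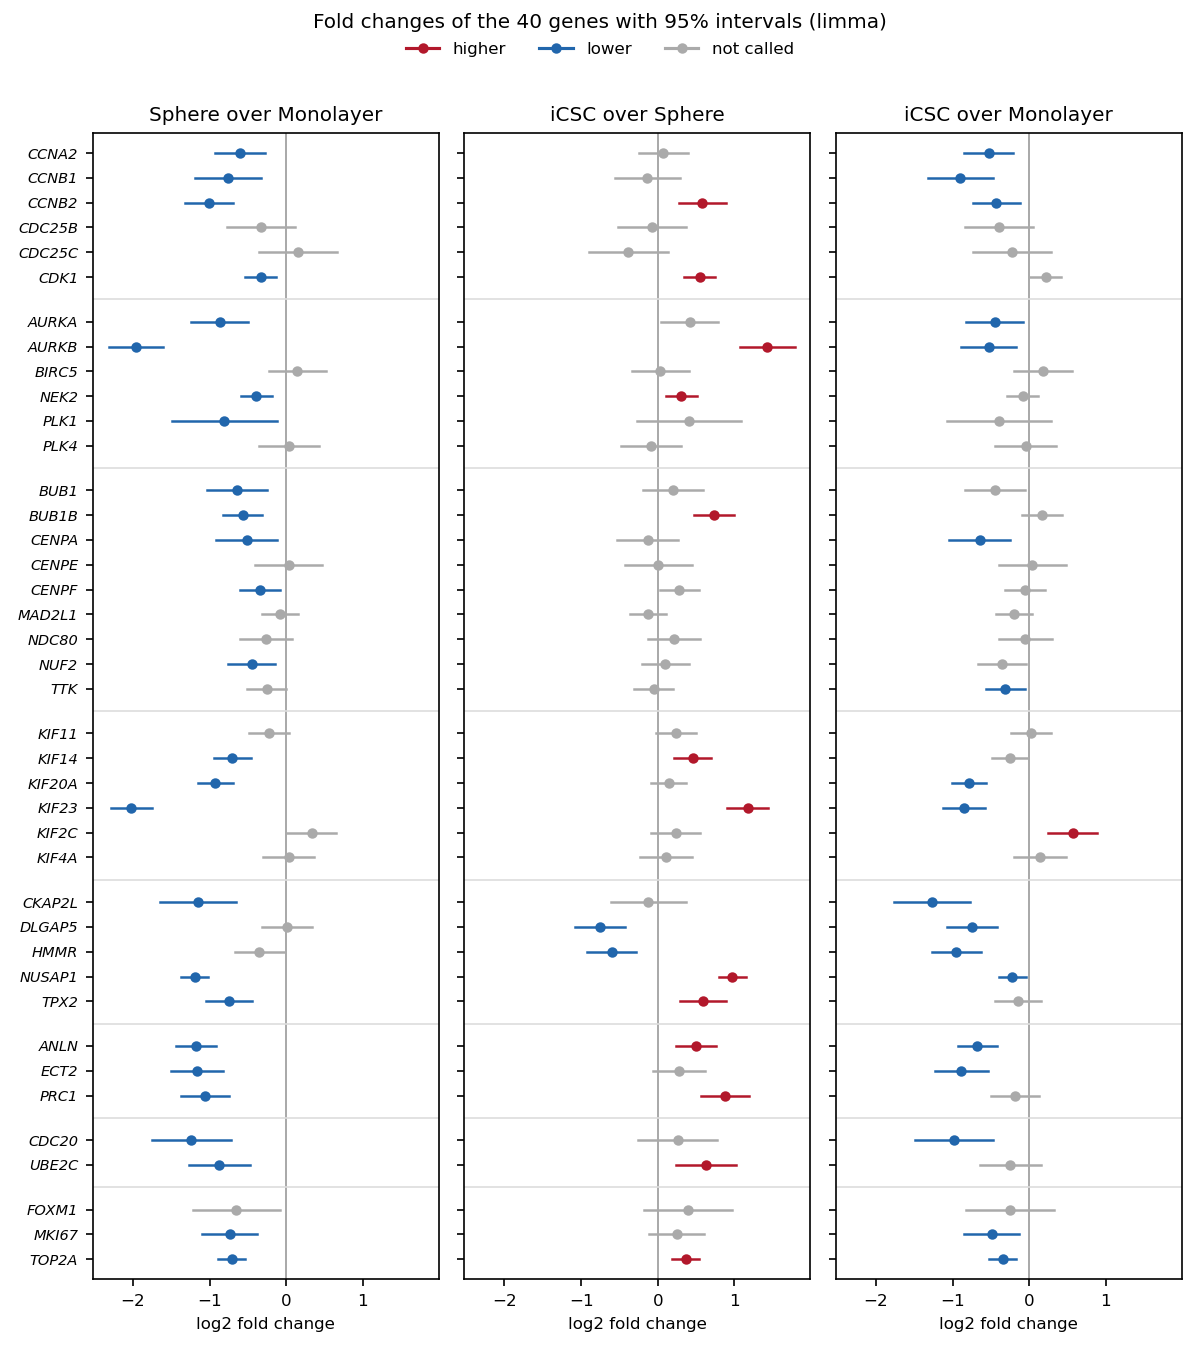
Log2 fold changes (horizontal axis) of the 40 genes in Sphere over Monolayer, iCSC over Sphere and iCSC over Monolayer, each point with its 95% interval from limma and coloured by its call (red higher, blue lower, grey not called). The first panel has 26 genes called lower and none higher, the second 13 higher and 2 lower, and the third 18 lower and 1 higher.

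The plot of fold changes shows the 3 comparisons beside each other. The genes with large values in Sphere over Monolayer were not all large in iCSC over Sphere: KIF23, AURKB, NUSAP1 and PRC1 had fold changes of 1.17, 1.43, 0.97 and 0.88 there, whereas CDC20, CKAP2L, ECT2 and KIF20A had 0.26, -0.12, 0.28 and 0.14 and were not called. Several probe sets passed the filter for 18 of the 40 genes, 25 further sets in all. Of these, 23 had the sign of the set used in Sphere over Monolayer, 21 in iCSC over Sphere and 20 in iCSC over Monolayer, and none was called in the opposite direction. Of the further sets of genes called in Sphere over Monolayer, 16 of 17 were called the same way, in iCSC over Sphere 7 of 9 and in iCSC over Monolayer 9 of 12.

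Part of these changes lay on chromosomes whose genes shifted as a whole. Chromosome 15 carries 5 of the members, CCNB2, BUB1B, KIF23, NUSAP1 and PRC1, and all 5 were lower in Sphere than in Monolayer and higher in iCSC than in Sphere. The median log2 fold change of the 347 tested genes of chromosome 15 was -0.46 in Sphere over Monolayer, where 52.7% were called lower, and 0.47 in iCSC over Sphere, where 52.4% were called higher. In iCSC over Monolayer that median was 0.005. DLGAP5 lies on chromosome 14, whose 343 tested genes had a median of -0.67 in iCSC over Sphere, where 66.5% were called lower, and -0.59 in iCSC over Monolayer. ECT2 lies on chromosome 3 and FOXM1 on chromosome 12, with medians of -0.46 and 0.49 in Sphere over Monolayer. HMMR, CCNB1, KIF20A and CDC25C lie on chromosome 5, with a median of -0.30 in iCSC over Sphere and -0.41 in iCSC over Monolayer.

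The members were counted again in 2 ways chosen after seeing the data. Among the 35 members on other chromosomes than 15, 21 (60%, against 29.1% of all genes) were lower and none higher in Sphere than in Monolayer. In iCSC over Sphere 8 (22.9%) were higher, a share near the 19.3% of all genes, and 2 (5.71%, against 19.2%) were lower. In iCSC over Monolayer 15 (42.9%, against 26.6%) were lower and 1 (2.86%, against 29%) higher. With the median of each chromosome removed from each array before the fit, Sphere had 28 members lower than Monolayer and none higher: BUB1B lost its call (-0.13, adjusted p = 0.385), and MAD2L1, KIF11 and FOXM1 became lower (0.0241, 0.0197 and 0.0052). In iCSC over Sphere 8 members were then higher and none lower, where 1675 and 1782 of all 10459 genes were. The calls of 8 members were lost. The log2 fold change was then 0.13 for CCNB2, 0.29 for BUB1B and 0.15 for TOP2A (adjusted p = 0.492, 0.11 and 0.212). It was 0.43 for PRC1, 0.43 for UBE2C and 0.23 for NEK2 (0.0587, 0.0767 and 0.0778). HMMR and DLGAP5 were the others, with the values given above. KIF20A was called higher, at 0.45 (0.0117). In iCSC over Monolayer 21 were lower and 1 higher, with DLGAP5 losing its call (-0.13, adjusted p = 0.459). Of all 10459 genes, this fit called 3012 lower and 3069 higher in Sphere over Monolayer. In iCSC over Monolayer it called 2772 lower and 2780 higher. The cause of the chromosome shifts was not tested.

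**Figure D3:**
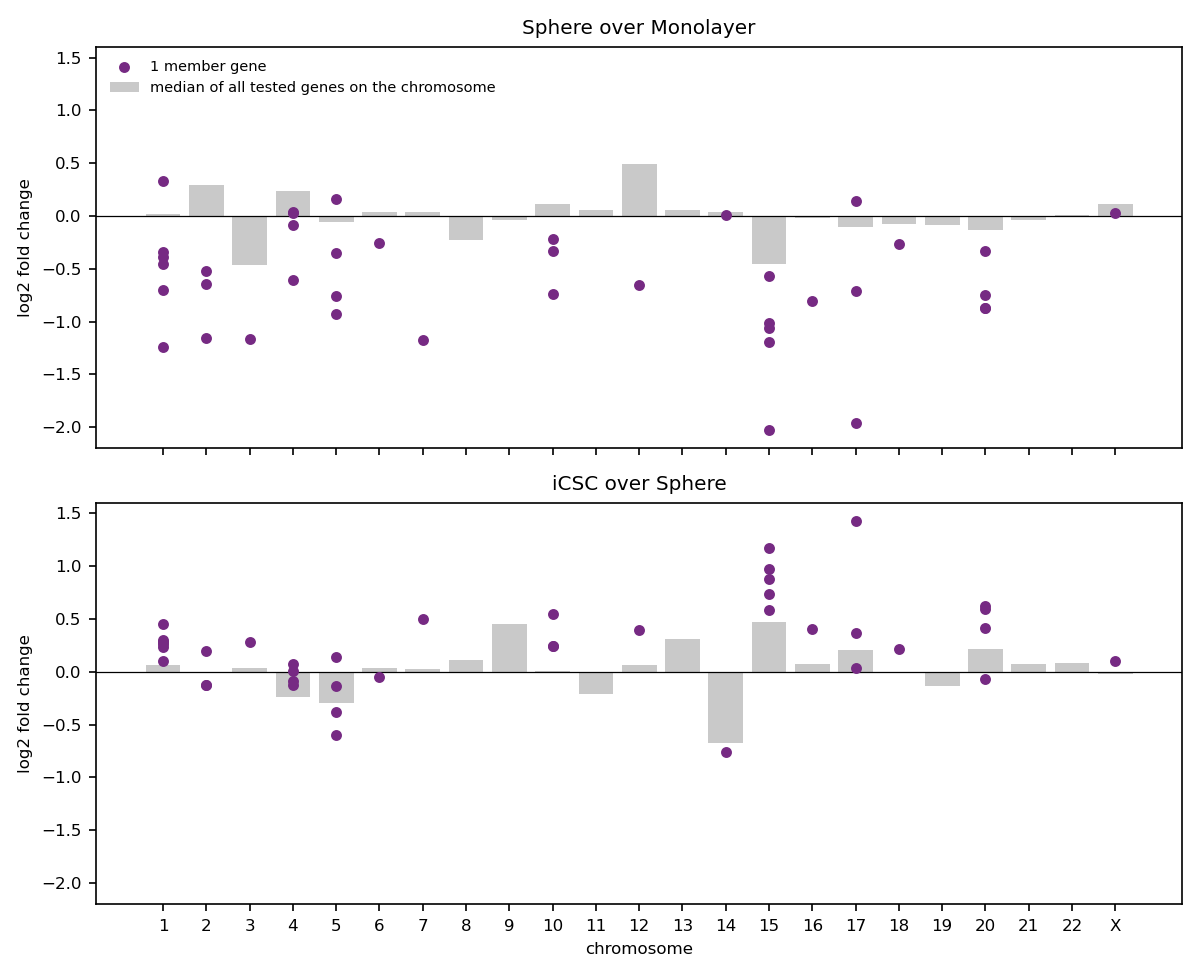
Log2 fold change (vertical axis) of Sphere over Monolayer and of iCSC over Sphere by chromosome (horizontal axis), with a purple point for each of the 40 genes and a grey bar for the median of all genes tested on that chromosome. On chromosome 15 the 5 members lie below the bar of -0.46 in Sphere over Monolayer and above the bar of 0.47 in iCSC over Sphere.

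The chromosome plot also shows that AURKB, on chromosome 17, and ANLN, on chromosome 7, changed far beyond the medians of their chromosomes. Counting every alternative fit tried, 13 of the 26 lower calls of Sphere over Monolayer held in all of them where the gene was tested: CCNB2, AURKA, AURKB, KIF20A, KIF23, KIF14, TPX2, NUSAP1, CKAP2L, PRC1, ANLN, ECT2 and TOP2A. Those of iCSC over Sphere that held in all were CDK1, AURKB, KIF23 and NUSAP1, 4 of 15. Those of iCSC over Monolayer were KIF20A, KIF23, HMMR, CKAP2L, ANLN and ECT2, 6 of 19.

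The 40 genes also moved together between arrays of the same culture. Replicate 2 was above replicate 1 for 34 of the 40 in iCSC (median difference 0.25 on the log2 scale) and for 39 of the 40 in Sphere (0.23), but for 15 of the 40 in Monolayer (-0.05). Over all genes tested, replicate 2 was the higher one for 51.2% in iCSC, 46.1% in Sphere and 39.3% in Monolayer. Without iCSC replicate 1, AURKA, PLK1 and CENPF were called as above Sphere in iCSC (adjusted p = 0.0164, 0.0249 and 0.0179). Without iCSC replicate 2, KIF11 was (0.0459), and in iCSC over Monolayer CDC25B, PLK1, BUB1, TPX2 and UBE2C were called lower (0.0132, 0.0183, 0.0266, 0.0187 and 0.0114) and CDK1 higher (0.0338). HMMR passed the threshold as lower in Sphere than in Monolayer without either iCSC array, at an unchanged fold change of -0.35. More of all genes tested were also called in that comparison then, so this gain is not by itself particular to the members. NUF2 passed as lower in iCSC than in Monolayer without either Sphere array, at an unchanged fold change of -0.35. PLK1 had the widest gap in iCSC, 0.84, and FOXM1 the widest in Sphere, 0.52. With 2 arrays per culture, this shared difference enters the fold changes of all members at once, so their calls are not independent of each other, and the number of arrays limits the precision of each.

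**Figure D4:**
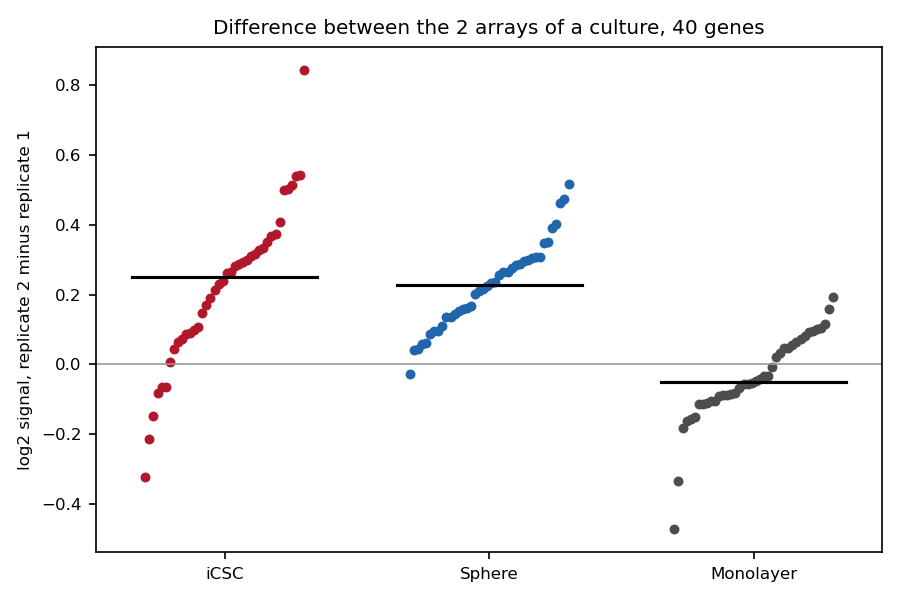
Difference in log2 signal between the 2 arrays of a culture, replicate 2 minus replicate 1 (vertical axis), for each of the 40 genes in iCSC, Sphere and Monolayer, sorted within the culture, with a black line at the median. The medians are 0.25, 0.23 and -0.05, and 39 of 40 Sphere points are above zero.

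The plot of replicate differences sets a scale for the smaller changes. The iCSC and Sphere replicate medians, 0.25 and 0.23, are as large as the median fold change of iCSC over Sphere, 0.24, and smaller in size than that of Sphere over Monolayer, -0.62. Over the 10459 genes tested, correlations between arrays were 0.984 to 0.996 within a culture and 0.729 to 0.859 between cultures. The 3′ to 5′ difference of the ACTB control probe sets, a sign of RNA integrity and labelling, was 1.47 and 1.40 in iCSC, 1.22 and 1.21 in Sphere, and 1.25 and 1.16 in Monolayer, and its part in the results of iCSC was not tested. Of the sympathetic neuroblast markers, 7 of 9 were above the background limit in iCSC, 8 in Sphere and 4 in Monolayer, with DBH below it on all arrays. Of 9 mesenchymal or stroma markers, 8 were above it in each culture, and several moved strongly. Mean log2 signals in iCSC, Sphere and Monolayer were 12.51, 4.60 and 3.64 for COL1A2, and 10.39, 8.48 and 11.05 for YAP1. In the same order they were 8.07, 5.92 and 7.99 for SNAI2, and 9.34, 7.47 and 9.01 for FN1. PRRX1 (10.28, 11.95 and 7.53), TWIST1 (11.63, 12.42 and 10.58) and PDGFRB (4.97, 7.64 and 5.35) were instead highest in Sphere. VIM (14.80, 14.02 and 15.07) and COL1A1 (10.98, 10.39 and 9.96) moved less. The part of these markers in the results was not tested. Of 7 leukocyte markers only PTPRC was above the background limit, in Sphere and Monolayer. Its mean log2 signals were 2.86 in iCSC, 12.47 in Sphere and 11.74 in Monolayer, and its part in these results was not tested. None of 4 epithelial and none of 3 endothelial markers was above the limit.

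Transcription factors that act on these promoters were a mixed group. Of 20 tested regulators, 7 (35%) were lower and 4 (20%) higher in Sphere than in Monolayer (median 0.02), where 29.1% and 30% of all genes were. In iCSC, 5 (25%) were above Sphere and 1 (5%) below, where 19.3% and 19.2% of all genes were. E2F7, an atypical E2F that represses transcription, read 9.30 and 9.41 in iCSC, 7.43 and 7.64 in Sphere, and 10.14 and 9.90 in Monolayer. Sphere stood apart as the lowest culture, with fold changes of -2.49 ± 0.14 in Sphere over Monolayer (adjusted p = 1.99e-05) and 1.82 ± 0.14 in iCSC over Sphere (adjusted p = 0.000175). TFDP1, the partner through which most E2Fs bind DNA, was lower in Sphere than in Monolayer (-1.30 ± 0.11, adjusted p = 0.000113) and in iCSC above Sphere (adjusted p = 0.00074), with 11.83 and 12.06 in iCSC, 10.85 and 11.04 in Sphere, and 12.28 and 12.22 in Monolayer. The repressor RBL1 (-1.51) and the atypical E2F8 (-1.14) were also lower in Sphere. Among the 4 higher there were E2F5 (1.08, adjusted p = 0.000639) and E2F2 (0.75, adjusted p = 0.037). Both were also higher in iCSC than in Monolayer (1.11 and 1.06, adjusted p = 0.000671 and 0.0105). In that comparison 6 regulators (30%, against 29% of all genes) were higher and 4 (20%, against 26.6%) lower. MYBL2, the activating MYB protein of the MuvB complex, was lower in Sphere than in Monolayer (-0.61 ± 0.15, adjusted p = 0.0127), as was the MuvB subunit LIN9 (-0.92 ± 0.17, adjusted p = 0.00361). LIN9 read 5.50 and 5.32 in iCSC, 5.19 and 5.28 in Sphere, and 6.12 and 6.19 in Monolayer. Both spheroid cultures were thus near the background limit. E2F1 was not called in Sphere over Monolayer (0.36 ± 0.16, adjusted p = 0.0903) and was higher in iCSC than in Monolayer (0.78 ± 0.16, adjusted p = 0.00612). E2F4 was not called in any comparison, with fold changes from -0.14 to 0.11, and LIN54 did not enter the test.

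Among 10 tested brakes on cyclin-CDK complexes, 3 were higher and 2 lower in Sphere than in Monolayer, and the 30% higher equals the share over all genes. In iCSC over Sphere 2 (20%, against 19.3% of all genes) were higher and 3 (30%, against 19.2%) lower. In iCSC over Monolayer 2 (20%, against 29%) were higher and 3 (30%, against 26.6%) lower. CDKN1C, the inhibitor p57, read 9.67 and 8.98 in iCSC, 6.99 and 5.51 in Sphere, and 2.66 and 3.70 in Monolayer, both of the last below the background limit. Against that limit it was at least 19.99-fold higher in iCSC and at least 2.38-fold higher in Sphere than in Monolayer (adjusted p = 0.000215 and 0.00366), and its fold change in iCSC over Sphere was 3.07 ± 0.56 (adjusted p = 0.00649). CDKN1B, the inhibitor p27, was higher in both spheroid cultures than in Monolayer, by 1.14 ± 0.15 in iCSC and 1.13 ± 0.15 in Sphere (adjusted p = 0.000894 and 0.000781). CDKN1A, the inhibitor p21, read 5.34 and 5.50 in iCSC, 6.48 and 7.35 in Sphere, and 4.98 and 5.24 in Monolayer, 1 of which was below the limit. It was higher in Sphere alone, by 1.81 ± 0.30 over Monolayer (adjusted p = 0.00247), and iCSC was lower than Sphere by a log2 fold change of -1.49 ± 0.30 (adjusted p = 0.00965). Others of the list were lower. CDKN3 was at -0.61 in Sphere over Monolayer, -1.30 in iCSC over Sphere and -1.91 in iCSC over Monolayer (adjusted p = 0.0453, 0.00422 and 0.000507). GADD45A was below Monolayer in Sphere (-0.90, adjusted p = 0.0322) and in iCSC (-1.08, adjusted p = 0.0176). CDKN2B was lower in iCSC than in Sphere (-1.73, adjusted p = 0.0306) and Monolayer (-1.77, adjusted p = 0.0204), with 1 iCSC array below the limit. WEE1, the kinase that holds CDK1 inactive, was not called in any comparison, with fold changes of 0.31 in Sphere over Monolayer, -0.29 in iCSC over Sphere and 0.02 in iCSC over Monolayer.

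Of other lists of the machinery, 2 had larger shares of lower calls in Sphere over Monolayer than the 29.1% of all genes, and another pair had shares near it. Of 32 further kinetochore and checkpoint genes, 16 (50%) were lower and 3 higher (median -0.45), with SPC24, of the NDC80 complex, at -1.56 and KNL1 and OIP5, both at centromeres and both on chromosome 15, at -1.41 and -1.40. Of 27 further kinesins and spindle genes, 15 (55.6%) were lower and 5 higher (median -0.43), with FAM83D at -1.83 and CDCA2 at -1.38, while KIF3A, a motor of transport in cilia rather than of the spindle, was higher by 1.42. Of 18 condensin and cohesin genes, 6 (33.3%) were lower and 2 higher (median -0.13), with the cohesin subunit STAG1 at -1.46 and the condensin subunits NCAPD3 and NCAPH at -0.90 and -0.85. Of 18 APC/C subunits and regulators, 5 (27.8%) were lower and 3 higher (median -0.20). In that list UBE2S, which lengthens the chains that UBE2C starts, was at -0.93 ± 0.09 (adjusted p = 0.000264), while the inhibitor FBXO5 (-0.23), securin PTTG1 (-0.01) and the late activator FZR1 (0.16) were not called. The shares of higher calls in these lists were 9.38%, 18.5%, 11.1% and 16.7% in the order given, against 30% of all genes. The list medians stand beside -0.62 for the 40 members and 0.006 for all genes.

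Genes of S phase, when DNA is copied, were low as well. Of 36 tested, 20 (55.6%, against 29.1% of all genes) were lower and 4 (11.1%, against 30%) higher in Sphere than in Monolayer (median -0.42). In iCSC over Monolayer 16 (44.4%, against 26.6%) were lower and 3 (8.33%, against 29%) higher (median -0.32). Cyclin E2, CCNE2, which starts S phase with CDK2, read 10.15 and 10.27 in iCSC, 8.89 and 9.07 in Sphere, and 11.28 and 11.24 in Monolayer. The cultures stood in separate steps, with -2.27 ± 0.11 in Sphere over Monolayer (adjusted p = 8.24e-06) and 1.23 ± 0.11 in iCSC over Sphere (adjusted p = 0.000271). In iCSC over Sphere the S phase list had 4 genes (11.1%) higher and 4 (11.1%) lower, below the 19.3% and 19.2% of all genes. Of the further kinetochore genes 6 (18.75%) were higher in that comparison, and of the further kinesins and spindle genes 6 (22.2%), both shares close to the 19.3% of all genes. In each of these lists 2 were lower (6.25% and 7.41%), below the 19.2% of all genes. Among those higher were BUB3, the checkpoint partner of BUB1 and BUB1B, which was 1.07 ± 0.06 higher (adjusted p = 5.46e-05), SPAG5 at 1.09 and FAM83D at 0.98.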

How the data were processed

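RNA was extracted with a Qiagen RNeasy kit, and 200 ng of it made biotinylated amplified RNA with the MessageAmp Premier Kit, per the labels' protocols. The deposited values are log2 signals, 1 for each probe set on each array; GCRMA and Partek are the programs in the submitters' processing notes, and their versions and settings are not known here. Probe sets were named by the platform annotation, with symbols updated and chromosomes taken from RefSeq (GRCh38.p14). A probe set entered when it was at least log2 5, the background limit, on at least 2 of 6 arrays, and the set with the highest mean stood for its gene. Models with a mean per culture were fitted over 10459 genes in limma 3.58.1 (R 4.3.3), with trended empirical Bayes variances, 3 residual degrees of freedom, two-sided tests and Benjamini-Hochberg adjustment, and tested on simulated data. Fold changes are given ± SE.

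The members and lists were chosen with earlier results of these data known. All 40 members could be named; from other lists, up to 4 called genes with the largest changes per comparison and 10 regulators listed by name. Other fits, 18 and a further 2 added after seeing the data, varied the filter, normalization, probe set, variance model, block, arrays and chromosomes.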

Additional observations from a re-analysis of the deposited data

How the results depend on the processing

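Refitting the 40 genes under the alternatives gave 748 values per comparison. Of these, 685 kept their side of the threshold in Sphere over Monolayer, 701 in iCSC over Sphere and 656 in iCSC over Monolayer. These counts include uncalled values whose sign changed. Calls were lost in 47, 38 and 71 values and gained in 16, 9 and 21, and no called member changed sign, while 17, 26 and 26 uncalled values did. The 40 genes never fell below 28 tested, which was the case without x_at and s_at probe sets. With 2 arrays per culture and 3 residual degrees of freedom, small changes could not be resolved.

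In Sphere over Monolayer, the 26 lower calls became 17 and the median -0.42 without x_at and s_at probe sets, with fewer members tested, and 16 without variance moderation. Over all genes, 3042 of 10459 were called lower in the main fit. The fit without x_at and s_at probe sets called 2138 of 7747 lower, and that without variance moderation 2288 of 10459. With only the arrays of both cultures, 1 member, KIF2C, was higher. Leaving out each array in turn gave 17 to 28 lower, 0 to 1 higher and a median of -0.76 to -0.44. In iCSC over Sphere, 8 members were higher and 0 lower without variance moderation and likewise with chromosome medians removed, 8 were higher without the chromosome 15 members, and leaving out each array gave 6 to 15 higher, 1 to 2 lower and a median of 0.11 to 0.34. In iCSC over Monolayer, 2 were higher with renewed quantile normalization and with median centring of each array, and without variance moderation 0 were higher and 9 lower. Leaving out each array gave 0 to 2 higher, 8 to 22 lower and a median of -0.47 to -0.22. Without variance moderation, calls over all genes also fell in iCSC over Sphere, from 2014 higher and 2008 lower to 1132 and 1149. In iCSC over Monolayer they fell from 3034 higher and 2778 lower to 2158 and 1979. Apart from the alternatives built with fewer samples or genes, the cause of these differences was not tested.

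Nothing in the labels states that arrays of the same replicate number are paired. Over all genes tested, their deviations from the culture means correlated at 0.0186 for Sphere and Monolayer, 0.173 for iCSC and Sphere and -0.053 for iCSC and Monolayer. Among the 40 members, replicate 2 was the higher one for 34 in iCSC and 39 in Sphere. Whether arrays of the same number share a batch was not tested. With the replicate number as a block, 27 members were lower in Sphere than in Monolayer (FOXM1 gained), 13 higher and 2 lower in iCSC than in Sphere, and 17 lower and 1 higher in iCSC than in Monolayer (TTK and NUSAP1 lost at adjusted p = 0.0631 and 0.0562, BUB1 gained). Over all genes tested, the limma fit with the block called 3175 higher and 3044 lower, 2061 and 2045, and 3097 and 2794 in the same order of comparisons.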
